A study of Mus musculus with 17 samples.

Results

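Kidneys with an active PRCC-TFE3 fusion and a deletion of Hif2a in their tubule epithelium were compared with kidneys in which the fusion stayed silent. Of 17 libraries in the series, 7 entered the comparison by the genotype in their titles, namely 3 PRCC-TFE3 KI/Hif2a KO kidneys (lsl-PRCC-TFE3 KI, HIF2a f/f, KSP-Cre(+)), called Hif2a KO kidneys from here on, and 4 Cre(-) kidneys. Cre(-) replicates 1 and 2 were lsl-PRCC-TFE3 KI, HIF1a f/f, KSP-Cre(-), and replicates 3 and 4 were lsl-PRCC-TFE3 KI, KSP-Cre(-), so every control carried the silent fusion allele and none carried the HIF2a flox allele. The 3 PRCC-TFE3 KI kidneys (lsl-PRCC-TFE3 KI, KSP-Cre(+); KI kidneys below), in which the fusion was on and Epas1 was not deleted, served as the yardstick. All mice were 8 months old. The Ksp (Cdh16) promoter drives Cre in tubule epithelium, so podocytes, vessels, stroma and immune cells were not targeted. RNA came from whole kidney, where fewer cells of a type and less RNA per cell cannot be told apart. The labels do not give the sex, and libraries of a group had neighbouring library numbers, so that effects of library order cannot be told apart from effects of genotype. The labels number the replicates of a group and say no more of how they were obtained, so p-values measure only the spread between these samples.

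TFE3 is a transcription factor of the MiT/TFE family, which binds E-box sequences and drives lysosome and autophagy genes. It is normally held in the cytoplasm by the folliculin and Rag GTPase machinery on the lysosome, while the PRCC-TFE3 fusion found in translocation renal cell carcinoma stays in the nucleus. HIF2α, the product of Epas1, is an oxygen-labile subunit that pairs with ARNT to switch on hypoxia genes and is degraded after recognition by VHL. In the mature nephron each tubule segment is recognised by its own transporters, and the proximal tubule runs on fatty acid oxidation.

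The Hif2a KO kidneys remained about as far from the Cre(-) kidneys as the KI kidneys did. Nephron transporters, the genes of fatty acid oxidation and gluconeogenesis and both genomes' respiratory chain genes were lower than in Cre(-). TFE3 target, injury, cell cycle, macrophage, lymphocyte and fibroblast genes were higher. Of 17011 genes tested, 10530 passed an adjusted p of 0.05 in edgeR's quasi-likelihood test (61.9% of the genes tested), 5440 of them higher (32.0%) and 5090 lower (29.9%) in Hif2a KO kidneys. A change of at least 2-fold, or 1 on the log2 scale, was seen in 2731 higher and 2044 lower genes. The KI kidneys, set against the same Cre(-) kidneys, gave 10362 genes (60.9%), of which 5381 were higher (31.6%) and 4981 lower (29.3%). Both comparisons share the Cre(-) libraries, so their values are given side by side and not as independent evidence. Hif2a KO and KI kidneys compared directly differed in 236 genes (1.39%), 126 higher (0.741%) and 110 lower (0.647%) in Hif2a KO.

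Distance from Cre(-) was measured as the root mean square (RMS) of the log2 CPM differences over all genes tested between a kidney and the mean of the Cre(-) kidneys, each Cre(-) kidney being set against the mean of the other 3. CPM is the count scaled to a common library size with TMM factors. The Hif2a KO kidneys lay at 1.23, 1.37 and 1.35 and the KI kidneys at 1.34, 1.42 and 1.34, while the Cre(-) kidneys lay at 0.48, 0.48, 0.46 and 0.47. Hif2a KO replicate 1 was thus the nearest to Cre(-) of the Hif2a KO and KI kidneys. The means were 1.32 ± 0.08 (SD, n = 3) for Hif2a KO and 1.37 ± 0.05 (SD, n = 3) for KI. Their difference of -0.05 was within the spread (exact permutation test, two-sided p = 0.6, where 3 against 3 cannot go below 0.1). The difference of 0.84 between Hif2a KO and Cre(-) had p = 0.057 in the exact permutation test, the smallest that 3 against 4 allows.

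**Figure D1:**
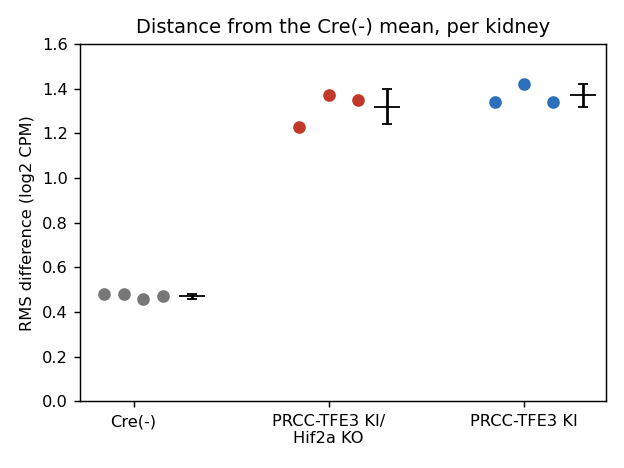
Distance of each kidney from the Cre(-) mean, in RMS log2 CPM difference over all genes tested, for Cre(-), PRCC-TFE3 KI/Hif2a KO and PRCC-TFE3 KI; dots are kidneys, and the cross with bars is the mean ± SD. The Hif2a KO and KI kidneys all lie at 1.23 or above and every Cre(-) kidney at 0.48 or below.

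Library totals were 21711031, 20807326 and 18001108 counts in the Hif2a KO kidneys, 18547274 to 22641506 in Cre(-) and 16504419 to 18173319 in KI, so that 3 counts, taken as the smallest amount a library can show, were 0.13 to 0.206 CPM on the TMM-scaled library sizes of these 3 groups. Intervals and floors cover counting error only. The mitochondrial genome took 21.5%, 19.1%, 22.2% and 23.1% of the counts in Cre(-) and 11.5%, 8.90% and 8.32% in Hif2a KO, against 8.68% to 8.85% in KI. In TPM (transcript abundance scaled for length and to one total per library), the median of all genes tested was 0.43 higher in Hif2a KO than in Cre(-) on the log2(TPM + 1) scale, against 0.02 in the counts with TMM factors, and 82.0% of the called genes were higher against 51.7%. Fold changes below, given in brackets as log2 fold change ± SE with the adjusted p of edgeR, use TMM factors and are Hif2a KO against Cre(-) unless KI is named. Calls against Cre(-) lost and directions turned on the log2(TPM + 1) scale are given beside the genes described with a fold change. For genes given with a fold change against KI, calls lost there are counted with the direct contrast and named among the flagged results. Genes described below that missed the threshold with TMM factors and passed it there, all higher in Hif2a KO, were Pmel (0.39), Tpp1 (0.73), Map1lc3b (0.63), Aldoa (0.78), Trpv5 (0.56), Pdgfra (0.73), Csf1r (0.26), Cd8a (0.88), Ccne2 (0.81), Acly (0.49) and Prcc (0.56), to be read against the 0.43 of all genes.

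Epas1, the targeted gene (chr17:86753700-86833410, plus strand, GRCm38), was lower in the Hif2a KO kidneys but far from absent. It was at 196, 205, 243 and 257 CPM in Cre(-) and 146, 149 and 136 CPM in Hif2a KO, with 173, 192 and 179 CPM in KI. The Hif2a KO values lay below every Cre(-) and every KI value. The log2 fold change against Cre(-) was -0.65 ± 0.09 (SE), adjusted p = 1.4e-05. On the log2(TPM + 1) scale it was -0.12 with an adjusted p of 0.299, and the call was lost. Against KI it was -0.33 ± 0.09 (SE), adjusted p = 0.0788, which missed the threshold. KI against Cre(-) gave -0.31 ± 0.09 (SE), adjusted p = 0.0059 with TMM factors, so Epas1 was also lower where it was not deleted. The counts cover whole transcripts and do not show whether the floxed exon was gone, and endothelial and stromal cells, which Ksp-Cre does not reach, also express Epas1.

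The partners of Epas1 moved in different directions. Hif1a, the sister subunit, was at 102, 128, 118 and 118 CPM in Cre(-) and 170.1, 199 and 256 CPM in Hif2a KO, higher without overlap (log2 fold change 0.84 ± 0.13 (SE), adjusted p = 4.21e-05), and its value in KI against Cre(-) was 0.88. Arnt, the shared partner, was at 59.1, 65.6, 65.6 and 59.9 CPM in Cre(-) and 59.3, 56.2 and 55.4 CPM in Hif2a KO, and the groups overlapped (-0.14 ± 0.06 (SE), adjusted p = 0.0749). On the TPM scale Arnt turned to 0.37 (adjusted p = 0.00289). Arnt2, an Arnt homologue, rose (1.21 ± 0.12 (SE), adjusted p = 5.34e-07). Hif3a, a subunit that can oppose HIF activity, fell from 3.02, 5.94, 6.88 and 5.24 CPM in Cre(-) to 1.296, 2.23 and 0.962 CPM (-1.81 ± 0.49 (SE), adjusted p = 0.00451). Vhl, which marks HIFα for degradation, was at 15.3, 18.9, 18.5 and 15.5 CPM in Cre(-) and 28.2, 34.4 and 35.7 CPM in Hif2a KO and rose in every Hif2a KO kidney (0.94 ± 0.12 (SE), adjusted p = 7.05e-06). Of the 11 genes of the HIF pathway list, 4 were higher and 3 lower, with a median log2 fold change of 0.01 in Hif2a KO and 0.13 in KI, beside 0.02 and 0.03 over all genes tested. The share called, 63.6%, was close to the 61.9% of all genes, and on the log2(TPM + 1) scale 8 were higher and 1 lower.

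HIF target genes in the Hif2a KO kidneys lay on both sides of Cre(-). Among 30 hypoxia-inducible targets, 7 were higher and 11 lower, with a median of 0.02 (KI 0.12). The 60.0% called was close to the share over all genes, and on the log2(TPM + 1) scale the balance turned to 16 higher and 2 lower (median 0.44, beside 0.43 over all genes). Hk2, the inducible hexokinase of the first step of glycolysis, stood at 2.47, 1.23, 1.72 and 1.01 CPM in Cre(-) and 146, 311 and 485 CPM in Hif2a KO and was 195-fold higher by group means (7.62 ± 0.51 (SE), adjusted p = 1.46e-08). Its level differed several-fold among the 3 Hif2a KO kidneys, with replicate 1 lowest, and overlapped that in KI (477, 417 and 355 CPM). Slc16a3, a lactate exporter, rose (2.58 ± 0.43 (SE), adjusted p = 8.96e-05), and Car12, a carbonic anhydrase, fell from 308, 256, 231 and 229 to 74.6, 38.03 and 57.9 CPM (-2.17 ± 0.30 (SE), adjusted p = 1.71e-05). Vegfa, the angiogenic ligand, named here after its values were seen, was at 319, 306, 292 and 314 CPM in Cre(-) and 186, 186 and 182 CPM in Hif2a KO and fell (-0.74 ± 0.13 (SE), adjusted p = 0.000133). Its call was lost on the log2(TPM + 1) scale (-0.19, adjusted p = 0.114).

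All 17 tested genes of a list of HIF2-associated targets differed from Cre(-) with TMM factors, beside 61.9% of all genes. Of these, 10 were higher and 7 lower, with a median of 0.51 (KI 0.87). On the log2(TPM + 1) scale 10 were higher and 5 lower, and with the replicate block 9 and 7. Epo and Il6 of that list were too low to test. Ccnd1, cyclin D1, was at 309, 285, 374 and 289.8 CPM in Cre(-) and 918, 1057 and 1220.4 CPM in Hif2a KO (1.76 ± 0.18 (SE), adjusted p = 8.63e-07), against 1672, 1586 and 1013 CPM in KI. Edn1, endothelin, was at 3.02, 4.39, 3.05 and 3.91 CPM in Cre(-) and 14.4, 27.6 and 17.1 CPM in Hif2a KO (2.45 ± 0.29 (SE), adjusted p = 3.03e-06), and Pdgfb, a growth factor for pericytes, had a log2 fold change of 1.77. The 7 lower genes were Angptl4, Slc40a1, Kdr, Tek, Sod2, Vegfa and Flt1. Kdr, Tek and Flt1 are receptors of endothelial cells and also count in the endothelial list. None of the 17 genes passed the threshold between Hif2a KO and KI kidneys, where 3 were above KI and the median was -0.23.

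Several genes that were silent or near silent in Cre(-) were high in the Hif2a KO kidneys, Tyrp1 and Gpnmb of the TFE3 and pigment list among them. Tfe3 itself was at 36.2, 34.3, 36.7 and 37.1 CPM in Cre(-) and 52.2, 57.5 and 56.4 CPM in Hif2a KO (0.62 ± 0.08 (SE), adjusted p = 5.82e-06), and Prcc at 42.2, 37.4, 39.3 and 40.7 CPM in Cre(-) and 40.2, 44.6 and 40.3 CPM in Hif2a KO, with overlapping groups (0.06 ± 0.08 (SE), adjusted p = 0.473, and 0.56 on the log2(TPM + 1) scale, adjusted p = 9.54e-06). The counts do not separate the fusion from the genes of the mouse. Tyrp1, a melanosome enzyme (chr4:80834123-80851719, plus strand), had no count in any Cre(-) kidney and was at 133, 142 and 172 CPM in the Hif2a KO kidneys, at least 724-fold higher than the 3-count floor of a Cre(-) library. Gpnmb, a lysosomal and melanosomal glycoprotein (chr6:49036546-49070929, plus strand), stood at 1.85, 2.14, 0.993 and 1.33 CPM in Cre(-) and 4953, 8779 and 11387 CPM in Hif2a KO (12.36 ± 0.52 (SE), adjusted p = 2.39e-10). The KI kidneys held 13008, 14211 and 15629 CPM, above all 3 Hif2a KO values, but the direct contrast missed the threshold (-0.77 ± 0.36 (SE), adjusted p = 0.262). Diras2, a small GTPase, was at 0.206, 0.161, 0.265 and 0.0631 CPM in Cre(-) and 475, 551 and 670.3 CPM in Hif2a KO (11.63 ± 0.28 (SE), adjusted p = 5.5e-13). Trpm1, a cation channel of melanocytes, was at 1.10, 1.07, 1.46 and 1.39 CPM in Cre(-) and 376, 346 and 378 CPM in Hif2a KO (8.19 ± 0.38 (SE), adjusted p = 4.36e-10).

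The other genes of the 10 with the greatest rise were low or silent in Cre(-). Tspan10, a tetraspanin of pigment cells, held 26.1, 39.7 and 61.1 CPM against 3 counts in all Cre(-) libraries together, a ratio of 885 (95% counting interval 303 to 4294). Gucy2c, the guanylin receptor, held 12.5, 12.7 and 22.9 CPM against 1 count, a ratio of 1008 (180.5 to 39839). Slc24a2, a sodium-calcium exchanger, Mrgprx2, a mast cell receptor, and Zic5, a zinc finger factor, had no count in Cre(-) and were at least 30.9-fold, 24.3-fold and 20.2-fold higher. Rps10-ps2 was at least 56.3-fold higher, but it is a pseudogene whose reads cannot be separated with certainty from Rps10. Ugt1a9, a glucuronosyltransferase, stood at 0.617, 0.482, 0.794 and 0 CPM in Cre(-) and 375, 226 and 322 CPM in Hif2a KO (9.34 ± 0.38 (SE), adjusted p = 2.08e-10), and it shares its last exons with the other Ugt1a genes.

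Of 13 TFE3 and pigment targets 10 could be tested, and 6 were higher and 2 lower, with a median of 1.70 in Hif2a KO and 1.72 in KI. The 6 were Gpnmb, Tyrp1, Trpm1, Cd68, Ctsk and Rab27a, and the lower 2 were Mitf and Tfec, MiT/TFE family members themselves. On the log2(TPM + 1) scale 7 were called higher and 1 lower. Cd68, a lysosomal membrane protein that is also a macrophage marker, rose from 5.76, 4.55, 3.24 and 5.49 to 616, 681 and 784 CPM (7.19 ± 0.25 (SE), adjusted p = 3.87e-11). Pmel, the melanosome fibril protein, stayed low, at 1.03, 0.589, 0.530 and 0.631 CPM in Cre(-) and 0.691, 1.62 and 0.658 CPM in Hif2a KO, with overlapping groups (0.52 ± 0.36 (SE), adjusted p = 0.223). None of the 10 passed the threshold between Hif2a KO and KI, where the median was -0.42.

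Lysosome genes were mostly higher. Of 34, 22 rose and 7 fell, with a median of 0.56 in Hif2a KO and 0.77 in KI. Ctsl, the protease cathepsin L, was at 423, 379.7, 412 and 409.6 CPM in Cre(-) and 2959.9, 4395 and 5242 CPM in Hif2a KO (3.37 ± 0.24 (SE), adjusted p = 2.7e-08), and its levels did not overlap those in KI (6579.7, 7659 and 7933 CPM). Hexa, a hexosaminidase, was at 67.6, 58.6, 60.6 and 67.8 CPM in Cre(-) and 488, 549.7 and 521 CPM in Hif2a KO (3.03 ± 0.12 (SE), adjusted p = 1.39e-10). Ctss, cathepsin S, and Ctsd, cathepsin D, rose by 2.93 and 1.98 on the log2 scale. Tpp1, tripeptidyl peptidase, was at 315, 285, 303 and 302 CPM in Cre(-) and 348, 327 and 322 CPM in Hif2a KO, and missed the threshold (0.14 ± 0.07 (SE), adjusted p = 0.072). Among the 7 lower genes were the galactosidase Glb1, the sialidase Neu1, the membrane protein Lamp2 and the proton pump subunits Atp6v0d2, Atp6v1h and Atp6v1a. On the log2(TPM + 1) scale 25 of the 34 were called higher and only 1 lower (median 1.07). Against KI, 4 lysosome genes were lower, the saposin precursor Psap, the channel Mcoln1 and the proton pump subunits Atp6v0d1 and Atp6v1c1, beside 0.647% of all genes, and 4 of 34 had a positive log2 fold change (median -0.21). None of the 34 was lower than in KI with the replicate block, with the adipocyte covariate, on the log2(TPM + 1) scale, without Hif2a KO replicate 1 or without KI replicate 2.

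In the autophagy and folliculin-Rag list 12 of 25 genes were higher and 3 lower, with a median of 0.19 (KI 0.50). The 60.0% called was close to the 61.9% of all genes, and on the log2(TPM + 1) scale 23 were higher and none lower (median 0.75). Rragd, a Rag GTPase, was at 89.5, 94.3, 67.6 and 59.9 CPM in Cre(-) and 219.9, 233 and 263 CPM in Hif2a KO (1.62 ± 0.14 (SE), adjusted p = 1.57e-07). Sqstm1, the autophagy receptor p62, was at 423, 418, 392.3 and 405 CPM in Cre(-) and 989, 978 and 1128 CPM in Hif2a KO (1.33 ± 0.10 (SE), adjusted p = 3.28e-08). Map1lc3b, which coats autophagosomes, was at 185, 167, 163 and 179 CPM in Cre(-) and 175, 178 and 170.5 CPM in Hif2a KO, with overlapping groups (0.01 ± 0.12 (SE), adjusted p = 0.967). Flcn, which encodes folliculin and was named after its values were seen, was at 43.3, 45.0, 37.8 and 36.7 CPM in Cre(-) and 74.3, 75.4 and 79.2 CPM in Hif2a KO and 96.5, 101 and 110.4 CPM in KI, the Hif2a KO kidneys lying between the other groups (0.90 ± 0.09 (SE), adjusted p = 8.8e-07 against Cre(-); -0.43 ± 0.10 (SE), adjusted p = 0.0489 against KI). Rragc was also lower than in KI, and no gene of the list was lower in any of the alternatives just named for the lysosome genes.

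Promoter windows of these genes were read to show the E-box that TFE3 recognises, from 250 bases before to 50 after each RefSeq start (GRCm38.p6). CACGTG and TCATGTGA were searched on both strands, and neither contains the other. The search covered 23 genes, named from the TFE3 and pigment, lysosome and autophagy lists or as the 10 of greatest rise against Cre(-). Not all of the latter are in a target list. Of the 23 genes 20 had a window and 7 held a motif. The windows of Gpnmb, Tyrp1 and Diras2 held neither. CACGTG was in 7.15% of all 32851 windows, in 9.20% of those of higher genes and in 9.61% of those of lower genes, and TCATGTGA was in 0.986%, 0.912% and 0.694%. The shares thus differed little between genes that rose and genes that fell. Stretches are given for 4 genes that rose, on the strand of the gene, with the motif in capitals. They come from chr13:64370719-64370770 (minus strand), chr7:142388035-142388077 (minus), chrX:153139801-153139868 (plus) and chr11:120442579-120442646 (plus), in this order:
Ctsl: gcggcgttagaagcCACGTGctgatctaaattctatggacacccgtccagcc
Ctsd: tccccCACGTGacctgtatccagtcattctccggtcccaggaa
Rragb: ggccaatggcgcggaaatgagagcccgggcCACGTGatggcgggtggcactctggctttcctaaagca
Tspan10: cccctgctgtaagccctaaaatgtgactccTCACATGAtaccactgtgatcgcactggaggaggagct

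The motif shown begins 236 bases before the start in Ctsl, 245 in Ctsd, 127 in Rragb and 22 in Tspan10. The capitals of Tspan10 are TCATGTGA read on the other strand. The windows of Ctsd and Rragb held 2 and 3 motifs, of which the first is shown. Trpm1, Ctss and Tpp1 also held a motif, and their stretches are not printed. Rragb, a Rag GTPase, was at 3.22, 2.41, 3.05 and 2.34 CPM in Cre(-) and 7.30, 5.65 and 8.00 CPM in Hif2a KO (1.34 ± 0.18 (SE), adjusted p = 1.44e-05). A match is a description of the letters and not a bound site.

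Proximal tubule genes were the nephron list furthest below Cre(-). Of 33 tested, 32 were lower and none higher, with a median log2 fold change of -3.24 in Hif2a KO and -3.37 in KI. Their summed level was 38664 to 43774 CPM in Cre(-) and 6963, 3576 and 3823 CPM in Hif2a KO, against 4464 to 5761 CPM in KI. Kap, an androgen-regulated protein of the proximal tubule (chr6:133849851-133853762, minus strand), went from 10514, 5686, 7716 and 9262 CPM to 133, 15.9 and 39.1 CPM, 133-fold lower (-7.05 ± 1.00 (SE), adjusted p = 2.02e-05). The Y-linked genes Kdm5d and Uty were measured in every one of these kidneys. Ddx3y and Eif2s3y, also Y-linked, reached at most 0.202 and 0.101 CPM in any library, and these genes do not settle the sex. Kdm5d was at 17.1, 19.4, 17.7 and 16.2 CPM in Cre(-) and 14.4, 7.88 and 7.54 CPM in Hif2a KO (-0.82 ± 0.19 (SE), adjusted p = 0.00148). Uty gave -0.91 ± 0.38 (SE), adjusted p = 0.0466. Both calls were lost on the log2(TPM + 1) scale. The call of Uty was also lost in most other alternatives, among them DESeq2 (adjusted p = 0.082) and the replicate block (adjusted p = 0.0505). Without any one of the Hif2a KO kidneys its adjusted p was 0.0538 to 0.165. The part of sex or androgen in the level of Kap was not tested. Slc22a7, an organic anion transporter, went from 336, 213, 272 and 327 CPM to 12.1, 0.350 and 0.405 CPM (-6.04 ± 0.99 (SE), adjusted p = 7.59e-05). Slc34a1, the phosphate transporter (chr13:55398187-55415592, plus strand; named after its values were seen, as was Lrp2), was at 3812, 3272, 3330.2 and 3439 CPM in Cre(-) and 405, 125 and 160.1 CPM in Hif2a KO (-3.91 ± 0.47 (SE), adjusted p = 4.16e-06). Lrp2, the endocytic receptor megalin, was at 5161, 5043, 5243 and 4098 CPM in Cre(-) and 909, 278 and 330.4 CPM in Hif2a KO (-3.27 ± 0.40 (SE), adjusted p = 4.32e-06).

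Hif2a KO replicate 1 held the highest level of each of these 4 genes among the Hif2a KO kidneys, and no Hif2a KO kidney reached the Cre(-) range. The RMS distance from Cre(-) over the list was 2.58 in replicate 1, 4.21 in replicate 2 and 3.87 in replicate 3, with a KI mean of 4.20. Between Hif2a KO and KI, 22 of 33 proximal genes had a positive log2 fold change (median 0.55), and without Hif2a KO replicate 1 it was 14 of 33 (median -0.06). The aspartic protease Napsa alone of the list passed the threshold there, lower than in KI. Slc7a13, a late proximal transporter, was at 2.40, 1.45, 2.58 and 1.70 CPM in Cre(-) and 2.20, 0.613 and 0.962 CPM in Hif2a KO, with overlapping groups (-0.68 ± 0.40 (SE), adjusted p = 0.152).

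**Figure D2:**
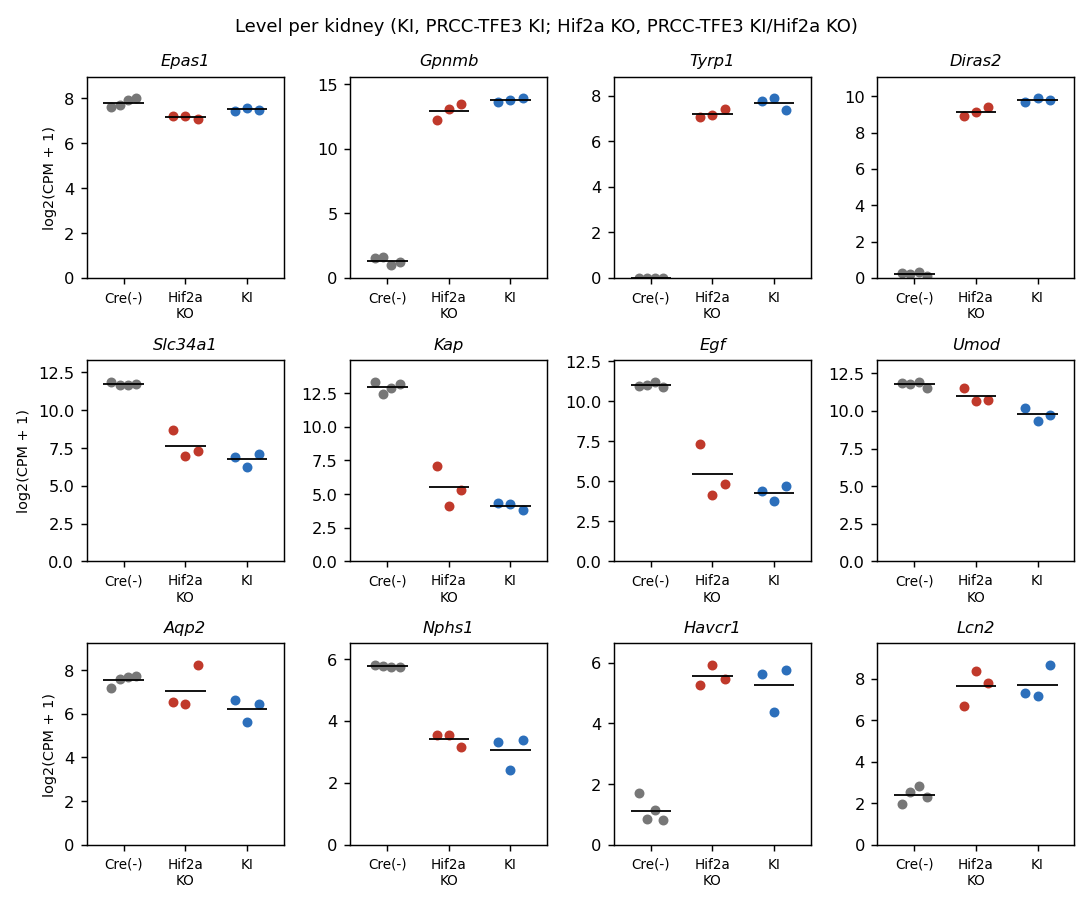
Level in each kidney as log2(CPM + 1) of the targeted gene Epas1, genes near silent in Cre(-) (Gpnmb, Tyrp1, Diras2), segment genes (Slc34a1, Kap, Egf, Umod, Aqp2), the podocyte gene Nphs1 and injury genes (Havcr1, Lcn2); dots are kidneys and lines are group means. Among the genes plotted, the ranges of Hif2a KO and Cre(-) overlap in Aqp2 only, through Hif2a KO replicate 3.

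The loop of Henle and the distal nephron followed with smaller differences. In the thick ascending limb list 13 of 15 genes were lower and 1 higher, with medians of -1.53 in Hif2a KO and -1.97 in KI. Egf, the growth factor made in this segment, went from 2004, 2022, 2385 and 1869 CPM to 160.4, 16.54 and 27.2 CPM (-4.93 ± 0.83 (SE), adjusted p = 0.000105), replicate 1 again being the highest. Cldn10, a tight junction protein, fell from 164, 178, 184 and 180.4 to 42.5, 24.6 and 28.2 CPM (-2.47 ± 0.22 (SE), adjusted p = 2.32e-07). Cldn19, its tight junction relative, was at 45.4, 43.4, 55.1 and 46.1 CPM in Cre(-) and 49.0, 64.4 and 61.5 CPM in Hif2a KO, with overlapping groups (0.30 ± 0.28 (SE), adjusted p = 0.378).

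Umod, the urinary protein uromodulin (chr7:119462711-119479282, minus strand) and named after its values were seen, set the Hif2a KO kidneys apart from KI. It was at 3647, 3553, 3948 and 2906 CPM in Cre(-) and 2876, 1624 and 1710.0 CPM in Hif2a KO, and 1193, 657 and 833 CPM in KI, with no overlap between the 3 groups. Against Cre(-) the log2 fold change was -0.76 ± 0.27 (SE), adjusted p = 0.0209. It lost the call on the log2(TPM + 1) scale (-0.28, adjusted p = 0.331), with either pair of Cre(-) kidneys alone (adjusted p = 0.0517 and 0.0824) and without Hif2a KO replicate 2 or 3 (adjusted p = 0.098 and 0.0876). In KI it was -1.97, and Hif2a KO against KI gave 1.21 ± 0.28 (SE), adjusted p = 0.0489. The call against KI was lost without any one of the Hif2a KO kidneys or without KI replicate 2 or 3 (adjusted p between 0.0677 and 0.207).

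Distal convoluted tubule genes were lower in 13 of 14 (median -1.77, KI -2.46). Slc12a3, the thiazide-sensitive cotransporter, was at 3091, 2975, 2356 and 2294 CPM in Cre(-) and 631, 233 and 287 CPM in Hif2a KO (-2.80 ± 0.43 (SE), adjusted p = 4.45e-05). Kl, the FGF23 co-receptor klotho, was at 882, 721, 736 and 656 CPM in Cre(-) and 181, 87.6 and 115 CPM in Hif2a KO (-2.55 ± 0.33 (SE), adjusted p = 9.13e-06). Trpv5, the apical calcium channel, was at 35.8, 30.5, 23.7 and 27.2 CPM in Cre(-) and 29.2, 26.0 and 35.7 CPM in Hif2a KO, with overlapping groups (0.05 ± 0.21 (SE), adjusted p = 0.849). All 14 genes had a positive log2 fold change against KI, with a median of 0.51, and none passed the threshold. Without Hif2a KO replicate 1 the median was 0.31.

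Of 16 intercalated cell genes 14 were lower and 1 higher (median -1.76, KI -2.39). Slc26a4, the chloride-bicarbonate exchanger pendrin, was at 88.8, 87.9, 69.4 and 69.95 CPM in Cre(-) and 19.9, 7.05 and 10.3 CPM in Hif2a KO (-2.67 ± 0.46 (SE), adjusted p = 0.000118). In collecting duct principal cells 6 of 15 genes were lower and 2 higher, with a median of -0.63, against -1.28 in KI. The 53.3% called did not exceed the 61.9% of all genes. Aqp2, the vasopressin-regulated water channel, was at 144, 192, 206 and 214 CPM in Cre(-) and 90.8, 85.3 and 300.3 CPM in Hif2a KO, and replicate 3 exceeded every Cre(-) kidney (-0.25 ± 0.38 (SE), adjusted p = 0.585). Its log2 fold change in KI was -1.28, and the direct contrast of Hif2a KO with KI missed the threshold (1.03 ± 0.41 (SE), adjusted p = 0.187). Hsd11b2, which inactivates glucocorticoids, was at 161, 180.2, 132 and 178 CPM in Cre(-) and 62.9, 27.8 and 102 CPM in Hif2a KO (-1.35 ± 0.34 (SE), adjusted p = 0.00291). Cdh16, the cadherin whose promoter drives the Cre, was at 1139, 1119, 1161 and 1221 CPM in Cre(-) and 740.5, 728 and 809 CPM in Hif2a KO (-0.61 ± 0.09 (SE), adjusted p = 2.84e-05), and its call was lost on the log2(TPM + 1) scale (-0.08, adjusted p = 0.533). In the thin limb list 5 of 10 genes rose and 3 fell (median 0.48, KI 0.17), among the higher ones the tight junction gene Cldn4 (3.28 ± 0.33 (SE), adjusted p = 6.11e-07).

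Beyond the segment lists, the 10 genes with the greatest fall included Kap and Slc22a7. Nccrp1 went from 12.8, 22.6, 45.1 and 29.6 CPM in Cre(-) to 0.173, 0.0438 and 0.253 CPM, and Myh1, a muscle myosin, from 11.7, 14.5, 10.0 and 16.0 to 0.130, 0.0875 and 0 CPM. Sec14l3, a lipid-binding protein, fell by 6.51 on the log2 scale and Cyp2d12, a cytochrome P450, by 6.01. C8a, a complement component, went from 102, 112, 109 and 108 to 4.54, 0.0875 and 0.304 CPM (-5.99 ± 0.80 (SE), adjusted p = 1.15e-05). Ccdc170 and the transporter Slc22a22 had log2 fold changes of -5.51 and -5.44. R3hdml was 55.6 times as high in Cre(-) by counts (95% counting interval 18.7 to 273), from 3 counts in Hif2a KO. In all of these the Hif2a KO kidneys lay below the Cre(-) range, and for several of them within a few counts of the floor.

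**Figure D3:**
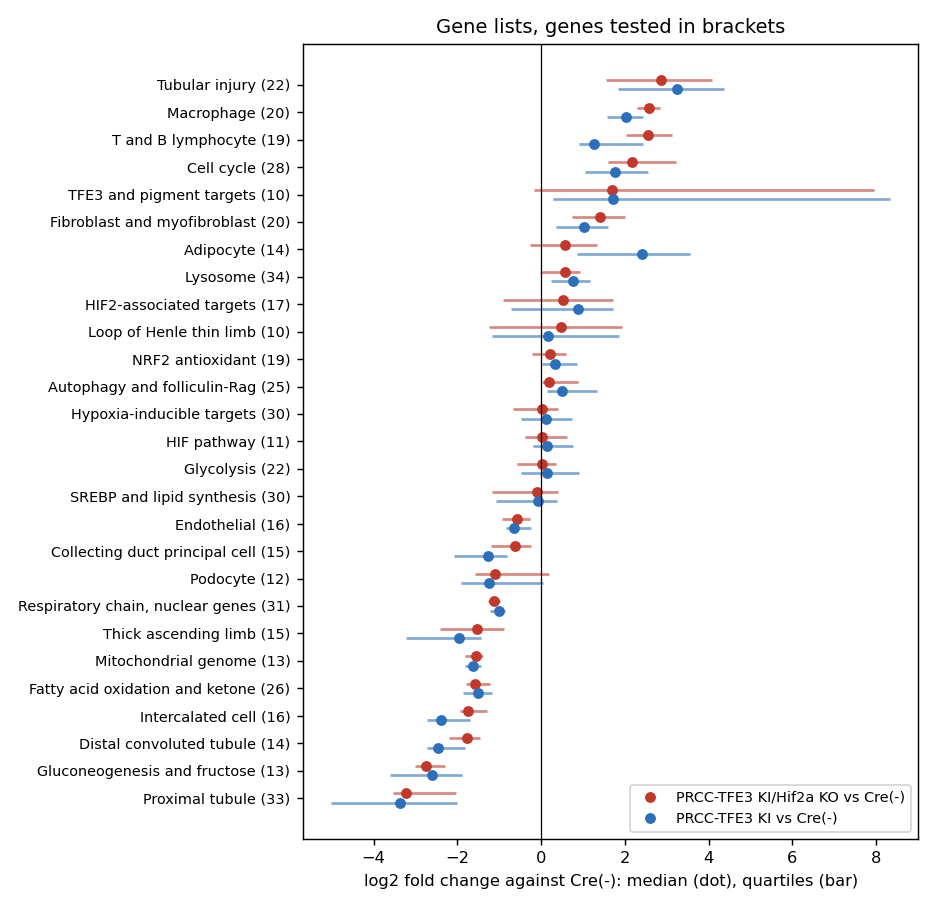
Median (dot) and quartiles (bar) of the log2 fold change against Cre(-) of the genes tested in each list, for PRCC-TFE3 KI/Hif2a KO and PRCC-TFE3 KI, which share the Cre(-) kidneys. The proximal tubule list is lowest in both (-3.24 and -3.37) and the tubular injury list highest (2.86 and 3.24), and the adipocyte list differs most (0.56 and 2.40).

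All 26 tested genes of fatty acid oxidation and ketone metabolism fell, with a median of -1.59 in Hif2a KO and -1.50 in KI. Acadm, the medium-chain acyl-CoA dehydrogenase, was at 1924, 1599, 1424 and 1341 CPM in Cre(-) and 246, 162 and 153 CPM in Hif2a KO (-3.07 ± 0.20 (SE), adjusted p = 1.3e-08). Ehhadh, a peroxisomal enzyme, was at 826, 1313, 756 and 736 CPM in Cre(-) and 155, 34.4 and 46.5 CPM in Hif2a KO (-3.53 ± 0.55 (SE), adjusted p = 4.69e-05), Cre(-) replicate 2 standing well above the other Cre(-) kidneys. On the log2(TPM + 1) scale 24 of the 26 were called lower and none higher.

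Gluconeogenesis and fructose genes were lower in 11 of 13 and higher in 1 (median -2.76, KI -2.62). Pck1, which commits to glucose synthesis, was at 2396, 4987, 2403 and 2900.2 CPM in Cre(-) and 261, 35.8 and 71.0 CPM in Hif2a KO (-4.69 ± 0.72 (SE), adjusted p = 4.4e-05). G6pc, the last step, was at 442, 550.4, 588 and 455 CPM in Cre(-) and 81.3, 9.72 and 14.02 CPM in Hif2a KO (-3.86 ± 0.84 (SE), adjusted p = 0.000952), and Fbp1, which precedes it, had a log2 fold change of -3.55. The 1 higher gene was Pck2, the mitochondrial form.

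The 31 nuclear genes of the respiratory chain all fell (median -1.13, KI -1.02), and so did all 13 protein genes of the mitochondrial genome (median -1.56, KI -1.63). Sdhb, of complex II, was at 313, 287, 281 and 306 CPM in Cre(-) and 102, 82.1 and 93.8 CPM in Hif2a KO (-1.68 ± 0.13 (SE), adjusted p = 4.67e-08), and Ndufs1, of complex I, at 320.2, 311, 321 and 279 CPM in Cre(-) and 121, 89.3 and 101 CPM in Hif2a KO (-1.57 ± 0.11 (SE), adjusted p = 2.13e-08). mt-Nd2, a complex I subunit made in the mitochondrion, was at 16180.4, 14082, 18121 and 18089.7 CPM in Cre(-) and 5108, 3428 and 3068 CPM in Hif2a KO (-2.10 ± 0.19 (SE), adjusted p = 2.02e-07). On the log2(TPM + 1) scale 29 of the 31 nuclear genes and 13 of the 13 mitochondrial ones were called lower. Ndufb8 was the nuclear gene lower than in KI.

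Of 22 glycolysis genes 6 rose and 8 fell, with a median of 0.01 (KI 0.14). On the log2(TPM + 1) scale the balance turned to 11 higher and 4 lower (median 0.48), and the 63.6% called with TMM factors was close to the share over all genes. Besides Hk2, the neuronal enolase Eno2 was at 2.67, 1.77, 1.79 and 2.40 CPM in Cre(-) and 27.9, 36.0 and 50.5 CPM in Hif2a KO (4.15 ± 0.27 (SE), adjusted p = 1.14e-08). Aldoa, the muscle-type aldolase, was at 855, 879, 735 and 854 CPM in Cre(-) and 853, 989 and 1165 CPM in Hif2a KO, with overlapping groups (0.27 ± 0.13 (SE), adjusted p = 0.0745). Aldoa is listed under 2 gene IDs, of which the one with more counts is given. Hk3, the hexokinase of myeloid cells, was at 0.686, 0.482, 0.596 and 0.631 CPM in Cre(-) and 4.75, 3.68 and 4.86 CPM in Hif2a KO (2.88 ± 0.27 (SE), adjusted p = 3.12e-07).

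Of 30 SREBP and lipid synthesis genes 6 were higher and 12 lower. Their median of -0.11 in Hif2a KO, beside -0.08 in KI, turned to 0.44 on the log2(TPM + 1) scale, close to the 0.43 of all genes there, with 17 higher and 10 lower. The 60.0% called with TMM factors was close to the share over all genes. Srebf1, the lipogenic transcription factor, was at 52.7, 49.3, 43.9 and 42.4 CPM in Cre(-) and 55.2, 82.6 and 94.5 CPM in Hif2a KO (0.72 ± 0.18 (SE), adjusted p = 0.00278). Insig1 and Insig2, which hold SREBP in the endoplasmic reticulum, had log2 fold changes of 1.76 and 0.81. Cyp51, of cholesterol synthesis, fell from 471, 394, 439 and 394 to 110.0, 55.8 and 62.8 CPM (-2.48 ± 0.30 (SE), adjusted p = 3.47e-06), and Scd1, the desaturase, from 1406, 931, 1312 and 1468 to 259, 189.7 and 440.3 CPM (-2.11 ± 0.30 (SE), adjusted p = 1.77e-05). Acacb, acetyl-CoA carboxylase 2, rose (1.77 ± 0.15 (SE), adjusted p = 1.04e-07), and Acly, ATP citrate lyase, was at 236, 276, 255 and 207 CPM in Cre(-) and 252, 226 and 269.9 CPM in Hif2a KO, with overlapping groups (0.04 ± 0.13 (SE), adjusted p = 0.824). Of 19 NRF2 antioxidant genes 7 rose and 4 fell (median 0.20, KI 0.34), and 12 and 0 did on the log2(TPM + 1) scale. The 57.9% called with TMM factors was close to the 61.9% of all genes. Hmox1, heme oxygenase, was at 15.8, 18.5, 19.1 and 22.1 CPM in Cre(-) and 65.9, 68.5 and 80.1 CPM in Hif2a KO (1.92 ± 0.26 (SE), adjusted p = 1.04e-05).

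All 22 tubular injury genes were higher, with a median of 2.86 in Hif2a KO and 3.24 in KI. Havcr1, the injury marker KIM-1, was at 2.26, 0.803, 1.19 and 0.758 CPM in Cre(-) and 37.5, 59.9 and 43.4 CPM in Hif2a KO (5.25 ± 0.41 (SE), adjusted p = 6.76e-08). Lcn2, the secreted protein NGAL, was at 2.95, 4.82, 6.02 and 3.85 CPM in Cre(-) and 102, 336 and 225 CPM in Hif2a KO (5.64 ± 0.46 (SE), adjusted p = 9.42e-08). Timp1, a protease inhibitor, and Gdf15, a stress cytokine, rose by 5.68 and 4.89 on the log2 scale. For each of these 4 genes the lowest Hif2a KO kidney lay several-fold above the highest Cre(-) kidney. None of the 22 passed the threshold against KI, where 10 were above and the median was -0.10.

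Cell cycle genes were higher in 26 of 28 and lower in 1, Tyms (median 2.17, KI 1.77). On the log2(TPM + 1) scale 27 were called higher and 0 lower. Mki67, the proliferation antigen, was at 8.23, 3.80, 8.01 and 5.05 CPM in Cre(-) and 86.5, 49.8 and 67.3 CPM in Hif2a KO (3.45 ± 0.43 (SE), adjusted p = 4.89e-06), against 47.5, 52.5 and 10.3 CPM in KI. Cdk1, the mitotic kinase, was at 0.891, 0.750, 0.596 and 0.253 CPM in Cre(-) and 8.38, 7.44 and 8.55 CPM in Hif2a KO (3.69 ± 0.32 (SE), adjusted p = 1.44e-07). Cdkn2a, a cell cycle inhibitor, was near zero in Cre(-), at 0, 0.161, 0 and 0.0631 CPM, and at 2.98, 6.65 and 7.09 CPM in Hif2a KO (6.35 ± 0.63 (SE), adjusted p = 5.75e-07). Ccne2, a G1 cyclin, missed the threshold (0.56 ± 0.27 (SE), adjusted p = 0.0799). Bub1b, a spindle checkpoint gene, was the list's gene higher than in KI.

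**Figure D4:**
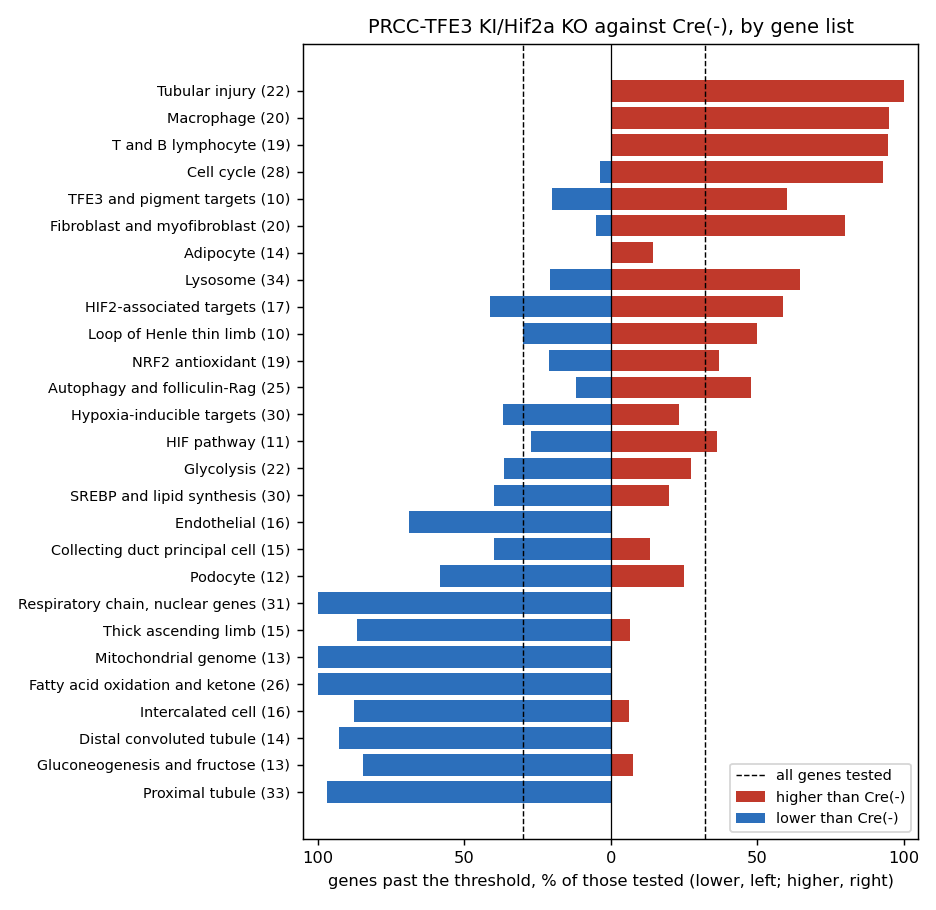
Percent of the genes tested in each list that were lower (left) or higher (right) in PRCC-TFE3 KI/Hif2a KO than in Cre(-), with the number tested in brackets and dashed lines at the shares over all genes tested, 29.9% and 32.0%. Tubular injury, macrophage, lymphocyte and cell cycle genes lie almost wholly to the right, and respiratory chain, fatty acid oxidation and proximal tubule genes to the left.

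Cells that Ksp-Cre does not target also gave different levels. Of 20 macrophage genes 19 were higher (median 2.58, KI 2.02), and their summed level was 244.0 to 329.9 CPM in Cre(-) and 1828, 2038 and 1918 CPM in Hif2a KO. In KI it was 1951, 2133 and 2043 CPM. Cd68 is one of the 20 and also stands in the TFE3 and pigment list. It made up 616, 681 and 784 CPM of the Hif2a KO sums and 1128, 1061 and 1151 CPM of the KI sums. Lyz2, lysozyme, was at 68.7, 36.7, 44.1 and 44.7 CPM in Cre(-) and 447, 409.8 and 382 CPM in Hif2a KO (3.09 ± 0.20 (SE), adjusted p = 1.14e-08), and Trem2, a receptor of lipid-handling macrophages, at 0.823, 0.750, 0.794 and 0.758 CPM in Cre(-) and 6.44, 9.19 and 13.4 CPM in Hif2a KO (3.62 ± 0.26 (SE), adjusted p = 3.13e-08). Csf1r, the growth factor receptor that defines the lineage, was at 101, 89.2, 97.7 and 100.1 CPM in Cre(-) and 92.3, 113 and 89.3 CPM in Hif2a KO, with overlapping groups (0.02 ± 0.09 (SE), adjusted p = 0.886). The part of each cell type in these sums was not tested.

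T and B lymphocyte genes were higher in 18 of 19 (median 2.54), against 10 of 19 in KI (median 1.27). Their summed level was 484.0, 191.6 and 220.8 CPM in Hif2a KO, 49.2 to 77.1 CPM in Cre(-), and 107.7, 247.3 and 48.0 CPM in KI. Replicate 1 led the Hif2a KO kidneys, and without it 13 genes were higher with a median of 1.71. Cd79a, of the B cell receptor, was at 0.891, 0.803, 0.993 and 0.316 CPM in Cre(-) and 20.0, 8.36 and 5.87 CPM in Hif2a KO (3.92 ± 0.93 (SE), adjusted p = 0.00191). Cd8a, of cytotoxic T cells, was at 2.67, 3.59, 1.72 and 2.21 CPM in Cre(-) and 9.20, 4.07 and 2.08 CPM in Hif2a KO, with overlapping groups (1.00 ± 0.47 (SE), adjusted p = 0.0756). None of the 19 passed the threshold between Hif2a KO and KI, although 17 were above KI (median 1.15, and 0.42 without Hif2a KO replicate 1).

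Fibroblast and myofibroblast genes were higher in 16 of 20 and lower in 1, Ltbp1 (median 1.40, KI 1.02). On the log2(TPM + 1) scale 19 were called higher and 0 lower. Col1a1, of collagen I, was at 22.6, 13.3, 15.0 and 18.3 CPM in Cre(-) and 148, 181 and 188 CPM in Hif2a KO (3.32 ± 0.20 (SE), adjusted p = 5.35e-09) and at 104, 77.3 and 59.6 CPM in KI. Col3a1, of collagen III, was at 46.3, 24.73, 26.7 and 35.4 CPM in Cre(-) and 246, 249.9 and 298 CPM in Hif2a KO (2.99 ± 0.21 (SE), adjusted p = 2.58e-08) and at 119, 94.5 and 83.3 CPM in KI. In both genes the Hif2a KO kidneys lay above all KI kidneys, which lay above all Cre(-) kidneys. The direct contrasts were 1.10 ± 0.20 (SE), adjusted p = 0.0213, for Col1a1 and 1.42 ± 0.22 (SE), adjusted p = 0.0137, for Col3a1. Col1a2 and the surface protein Thy1 (1.03 ± 0.22 (SE), adjusted p = 0.0342) were also higher than in KI. Pdgfra, a fibroblast receptor, was at 43.4, 44.6, 63.0 and 74.3 CPM in Cre(-) and 66.6, 59.4 and 78.0 CPM in Hif2a KO, with overlapping groups (0.27 ± 0.21 (SE), adjusted p = 0.267).

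Podocyte and endothelial genes fell more often than they rose. Of 12 podocyte genes 7 fell and 3 rose (median -1.10, KI -1.24), and on the log2(TPM + 1) scale 6 were lower and 4 higher (median -0.3). Nphs1, the slit diaphragm protein nephrin, was at 55.1, 54.4, 52.1 and 52.7 CPM in Cre(-) and 10.6, 10.6 and 7.90 CPM in Hif2a KO (-2.46 ± 0.30 (SE), adjusted p = 5.06e-06). Synpo, an actin-associated protein of foot processes, was at 107, 101, 94.6 and 103 CPM in Cre(-) and 82.0, 105.4 and 90.6 CPM in Hif2a KO (log2 fold change -0.13, and 0.36 on the log2(TPM + 1) scale, adjusted p = 0.00565). Of 16 endothelial genes 11 fell and none rose (median -0.57, KI -0.66), but on the log2(TPM + 1) scale 6 were lower and 4 higher (median -0.04). Ehd3, of glomerular endothelium, was at 38.5, 51.2, 38.3 and 56.4 CPM in Cre(-) and 19.6, 20.3 and 16.8 CPM in Hif2a KO (-1.29 ± 0.16 (SE), adjusted p = 7.04e-06). Pecam1, the pan-endothelial marker, was at 81.2, 81.0, 98.4 and 112 CPM in Cre(-) and 89.4, 73.1 and 62.5 CPM in Hif2a KO, with overlapping groups (-0.31 ± 0.13 (SE), adjusted p = 0.0552).

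Of 14 adipocyte genes 2 were higher than in Cre(-) and none lower (median 0.56, KI 2.40). Their summed level was 360.9, 407.9 and 674.9 CPM in Hif2a KO, 223.0 to 462.9 CPM in Cre(-), and 455.9, 3677 and 683.6 CPM in KI. KI replicate 2 thus stood far above the others, and without it the median difference between Hif2a KO and KI went from -1.58 to 0.05. Plin4, a lipid droplet protein, was at 8.98, 12.0, 8.74 and 10.0 CPM in Cre(-) and 183, 158 and 181 CPM in Hif2a KO (4.12 ± 0.18 (SE), adjusted p = 3.33e-10) and at 235, 371 and 304 CPM in KI, above the Hif2a KO kidneys (-0.80 ± 0.18 (SE), adjusted p = 0.0423). Pparg, the adipocyte regulator, was at 5.00, 2.41, 2.65 and 2.27 CPM in Cre(-) and 5.53, 6.61 and 13.1 CPM in Hif2a KO (1.45 ± 0.55 (SE), adjusted p = 0.0317). Its call was lost without Cre(-) replicate 2, 3 or 4 and without Hif2a KO replicate 3 (log2 fold change 0.98, adjusted p = 0.173).

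The 236 genes that differed between Hif2a KO and KI kidneys depended on single kidneys far more than the comparison with Cre(-) did. Without 1 library at a time it gave between 13 genes (without KI replicate 3) and 857 (without KI replicate 1). It gave 43 genes without Hif2a KO replicate 2, 79 without replicate 3, 129 without replicate 1 and 88 without KI replicate 2. Only 2 genes were called when the 2 groups were fitted alone. With the replicate number as a block 76 were called, 47 higher and 29 lower. Of the 20 genes called in this contrast that the naming rule or the later additions gave, 20 lost the call without KI replicate 3, 17 without Hif2a KO replicate 2, 16 without KI replicate 2, 13 and 12 without Hif2a KO replicates 1 and 3, and 1 without KI replicate 1. With the replicate block the lysosome, autophagy, proximal tubule, cell cycle and nuclear respiratory chain lists held no gene called against KI, and the fibroblast list held 1. Among the 20 genes above, 6 lost the call on the log2(TPM + 1) scale. For the genes that follow, fold changes in brackets are Hif2a KO against KI unless a comparison with Cre(-) is stated.

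Among the genes lower than in KI, Kctd19 had no count in Cre(-), was at 0.9503, 1.31 and 1.57 CPM in Hif2a KO and at 3.74, 3.93 and 4.62 CPM in KI (-1.68 ± 0.28 (SE), adjusted p = 0.0213), so the Hif2a KO level, at least 6.21-fold over the Cre(-) floor, lay between the other groups. Rnase4, a secreted ribonuclease, was at 14.3, 11.6, 30.6 and 35.5 CPM in Cre(-) and 47.0, 42.1 and 49.2 CPM in Hif2a KO and 100.2, 117 and 179 CPM in KI (-1.52 ± 0.33 (SE), adjusted p = 0.0384), and it shares its first exons with Ang. Apoh, a plasma apolipoprotein, was at 0.389, 0.394 and 0.456 CPM in Hif2a KO and 1.49, 2.96 and 8.84 CPM in KI (-3.41 ± 0.77 (SE), adjusted p = 0.0464). The Hif2a KO values of Apoh did not differ from Cre(-) past the threshold (1.84 ± 0.95 (SE), adjusted p = 0.106). Ly6f and Col13a1, a transmembrane collagen, were also lower (-2.97 ± 0.69 (SE), adjusted p = 0.0489, and -1.92 ± 0.40 (SE), adjusted p = 0.0337). Ly6f has close paralogues in the Ly6 cluster, which makes its counts uncertain.

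Among the genes higher than in KI, Erich4 was between 39.5 and 56.0 CPM in Cre(-), at 11.4, 6.13 and 5.82 CPM in Hif2a KO and at 0.690, 0.377 and 0.970 CPM in KI (3.52 ± 0.64 (SE), adjusted p = 0.0213). The Hif2a KO kidneys lay between the others without overlap and remained below Cre(-) (-2.61 ± 0.49 (SE), adjusted p = 0.000255). Dio2, which activates thyroid hormone, was at 0.823, 0.642, 0.861 and 0.694 CPM in Cre(-) and 3.46, 3.54 and 5.26 CPM in Hif2a KO and 1.72, 0.969 and 0.342 CPM in KI (2.01 ± 0.46 (SE), adjusted p = 0.048). Cd226, a receptor of T and NK cells, was at 3.76, 1.49 and 1.82 CPM in Hif2a KO, 0.575, 0.539 and 0.171 CPM in KI and 0.823, 1.18, 1.52 and 0.631 CPM in Cre(-) (2.44 ± 0.48 (SE), adjusted p = 0.0265). The immunoglobulin segments Igkv13-85 and Ighv1-80 were at 4.10, 12.6 and 4.56 CPM and 39.7, 6.78 and 10.7 CPM in Hif2a KO (7.34 ± 1.29 (SE), adjusted p = 0.0185, and 3.29 ± 0.77 (SE), adjusted p = 0.0496), and such segments share sequence with their neighbours. Igkv13-85 had 2 counts in all KI libraries together, so its fitted fold change depends on the prior count, and the ratio of counts was 193 (95% counting interval 53.1 to 1597).

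Interferon-induced genes were added after their values were seen, and their fold changes in brackets are also Hif2a KO against KI. Isg15, a ubiquitin-like modifier, was at 2.67, 2.20, 2.25 and 2.34 CPM in Cre(-) and 6.52, 11.0 and 7.79 CPM in Hif2a KO and 4.25, 2.32 and 1.26 CPM in KI (1.69 ± 0.31 (SE), adjusted p = 0.0213). Irf7, the interferon regulatory factor, was at 15.5, 11.6, 11.8 and 15.9 CPM in Cre(-) and 46.6, 94.7 and 55.8 CPM in Hif2a KO and 35.1, 25.3 and 13.9 CPM in KI (1.41 ± 0.28 (SE), adjusted p = 0.0275). Ifit1, an antiviral protein, was at 8.43, 7.39, 7.02 and 9.15 CPM in Cre(-) and 18.7, 26.9 and 22.5 CPM in Hif2a KO and 13.0, 9.80 and 4.62 CPM in KI (1.31 ± 0.25 (SE), adjusted p = 0.0255). In all 3 genes the Hif2a KO kidneys lay above every kidney of the other groups.

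**Figure D5:**
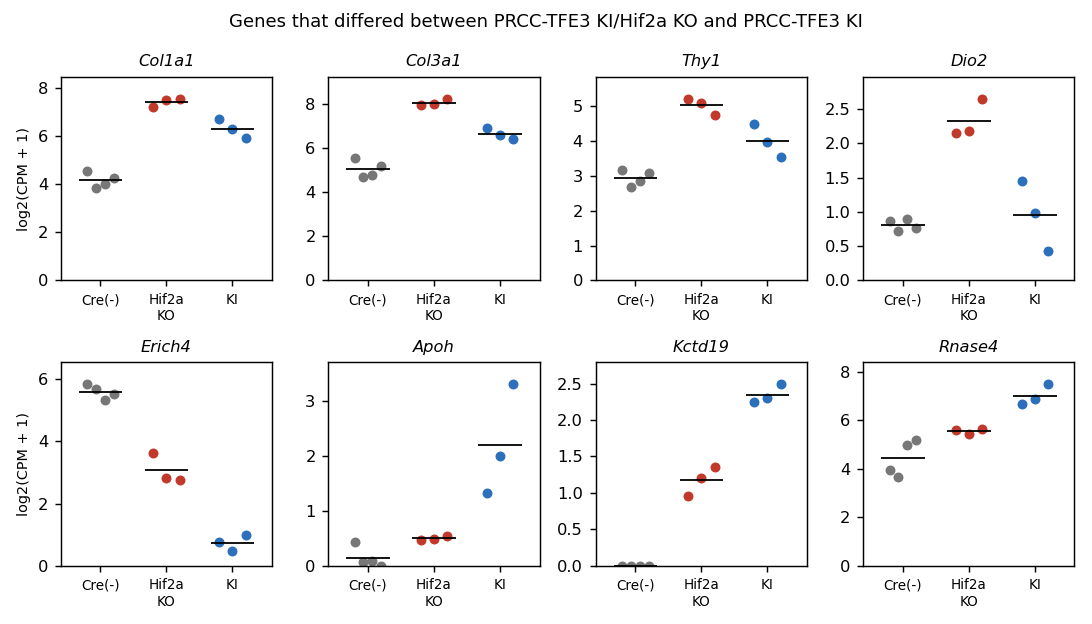
Level in each kidney as log2(CPM + 1) of 8 genes that differed between PRCC-TFE3 KI/Hif2a KO and PRCC-TFE3 KI; dots are kidneys and lines are group means. Col1a1, Col3a1, Thy1 and Dio2 are highest in Hif2a KO, and in Erich4 and Kctd19 the Hif2a KO kidneys lie between Cre(-) and KI.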

How the data were processed

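Kidney RNA was sequenced with 75-nt reads. The methods name Trim Galore 0.6.6 with cutadapt 2.5, STAR 2.7.9a and RSEM. They name the human assembly hg38 for the alignment and hg38 or GRCm38 for the annotation, and the files list mouse transcripts. The authors deposited expected counts per transcript, which are estimates not normalized between libraries, and TPM per transcript, which are scaled for length and to each library's total. Of 119353 transcripts, 116770 (97.8%) matched GENCODE M21 (GRCm38), and values were summed over 35971 genes. Summed expected counts were rounded to whole numbers. The main test was edgeR 4.0.16 (R 4.3.3; quasi-likelihood, TMM, filterByExpr with a minimum count of 10, one fit of all 17 libraries). P-values were adjusted by Benjamini-Hochberg over the 17011 genes tested, with a threshold of 0.05. Distances used log2 CPM with a prior count of 2. DESeq2 1.42.0 and limma 3.58.1 on log2(TPM + 1) were alternatives. The main edgeR fit, some of its alternatives and DESeq2 were tested on simulated counts, and limma there on log2(CPM + 1). The simulation held no length scaling and no shift in the mitochondrial share, so it does not test the TPM scale. It changed only a small part of the genes, equally often up and down. It therefore does not test TMM factors where most genes are called, as they were against Cre(-).

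The genes and gene lists were chosen with earlier results of these data known. Genes were named by a rule: Epas1, Hif1a, Arnt, Tfe3, Prcc, Cdh16, Srebf1, Insig1 and Insig2. Up to 4 called genes with the greatest change in each list followed, with the one of highest CPM that fell short. Last came the 10 genes of greatest change in each direction against Cre(-) and the 5 against KI, with no overlap and at least 1 TPM. Umod, Slc34a1, Lrp2, Flcn, Vegfa, Isg15, Irf7 and Ifit1 were added after their values were seen. Same-numbered kidneys of Hif2a KO and Cre(-) did not deviate together (r = -0.06, -0.03 and -0.05), so the numbers were not used as pairs. Some genes that the rule selects are not reported here.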

Additional observations from a re-analysis of the deposited data

Results flagged for a closer look

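Of 136 sets of 4 Cre(-) values examined, 3 held a kidney far from the other 3, where chance gives about 1 in 20. They were Ehhadh (1313 CPM, Cre(-) replicate 2), Pparg (5.00 CPM, replicate 1) and Pgd (111.0 CPM, replicate 2), an enzyme of the pentose phosphate pathway.

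The difference from the shared Cre(-) kidneys was unequal in Hif2a KO and KI, by the direct edgeR contrast, in 20 genes given by the naming rule or the later additions, besides the genes named from lists as called against KI (Psap, Mcoln1, Atp6v0d1, Atp6v1c1, Rragc, Napsa, Ndufb8, Bub1b and Col1a2). Positive log2 differences, Hif2a KO above KI, were 7.34 for Igkv13-85 (a fitted value from 2 counts in KI), 3.52 for Erich4, 3.29 for Ighv1-80, 2.44 for Cd226, 2.01 for Dio2, 1.69 for Isg15, 1.42 for Col3a1, 1.41 for Irf7, 1.31 for Ifit1, 1.21 for Umod, 1.13 for Hk3, 1.10 for Col1a1 and 1.03 for Thy1. Negative ones were -3.41 for Apoh, -2.97 for Ly6f, -1.92 for Col13a1, -1.68 for Kctd19, -1.52 for Rnase4, -0.80 for Plin4 and -0.43 for Flcn. Each of these 20 lost its call in at least one alternative. The calls lost on the log2(TPM + 1) scale were those of Plin4, Ly6f, Ighv1-80, Cd226, Dio2 and Flcn.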

How the results depend on the processing

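The comparison with Cre(-) kept its size under most settings. Where the absolute log2 fold change also had to reach 1, the genes called fell from 10530 to 4775 (KI 4670 in place of 10362). Leaving out 1 library at a time gave 9315 to 10201 genes (KI 9442 to 9993), and the replicate block gave 10075, 5235 higher and 4840 lower (KI 9867). TPM moved the split, with 9583 genes higher and 2109 lower in limma on log2(TPM + 1) (KI 8843 and 2458) and a median of all genes of 0.43. With TPM rescaled without the mitochondrial genome, a setting chosen after seeing the data, the median was 0.16 and the split 6322 and 3409. Named genes that reversed under TPM with pseudocounts of 1 and 0.1 were Arnt (0.37 and 0.38) and Synpo (0.36 and 0.37).

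The 236 genes between Hif2a KO and KI became 1015 in DESeq2, 83 in limma on log2(TPM + 0.1), 78 where the fold change also had to reach 1 on the log2 scale, 76 with the replicate block, 71 with the adipocyte score as covariate and 2 in a fit of the 2 groups alone. Leaving out 1 library gave 13 to 857. The cause was not tested.

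The distance from Cre(-) moved to 4.22 (KI 4.38) over the 500 most variable genes and to 1.09 (KI 1.10) on log2(TPM + 1). Leaving out 1 library gave 1.29 to 1.36 (KI 1.34 to 1.38). Same-numbered kidneys did not deviate together, and why the replicate block gave fewer calls was not tested. A covariate of Y-linked level was not run, because Ddx3y and Eif2s3y reached at most 0.202 and 0.101 CPM in any library. Kdm5d and Uty, which were measured in every library, were not used in its place. With TMM factors both were called lower in Hif2a KO than in Cre(-), but most alternatives lost the call of Uty. The part of sex in the results was not tested. Genes under about 0.2 CPM could not be separated from absence at this depth.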
